A study of Mus musculus with 383 samples.

Results

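The arrays described here were the thalamus arrays of an F2 cross of mice at the upper and lower end of a score made from 4 genes known for the habenula. Every thalamus array was scored by the mean z value, across these arrays, of Pou4f1, Chrna3, Chrnb4 and Gpr151, each read from its probe set with the highest mean in thalamus. The arrays were thus chosen by these measured values: the top 25% gave 27 arrays, called rich, and the bottom 25% gave 27 arrays, called poor, out of 383 arrays in all. The other 54 thalamus arrays, called middle, were in neither group. Each array came from a different mouse.

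All mice were males of the second generation of a cross between the strain C57BL/6J and the strain 129S1/SvImJ. The rich and the poor mice thus shared the cross and sex, but mice of this generation need not share genotype. The labels give 1 course of procedures for all. It held tests of behaviour from 7 weeks of age, electrodes for sleep recording at 10 weeks, and sleep recordings on an undisturbed day, following a deprivation of 6 h and following restraint for 1 h. Trait values are missing for some mice, most often after restraint, where a trait had values of at most 15 rich and 19 poor mice. Tissue was taken at 16 weeks, between 6 h and 7 h after lights on. Cortex, hippocampus and hypothalamus of many of the same 117 mice were measured as well. No treatment separates the rich from the poor arrays: the groups were made from measured values, and the labels do not say how the thalamus was dissected.

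The habenula is a small paired nucleus that lies on the upper inner edge of the thalamus and carries signals from the forebrain to the midbrain. Its medial part holds neurons that release acetylcholine, glutamate and tachykinin peptides onto the interpeduncular nucleus, and it is known for one of the densest fields of nicotinic acetylcholine receptors in the brain. Chrna3 and Chrnb4 encode subunits of that receptor, Gpr151 encodes an orphan receptor found on habenular axons, and Pou4f1 encodes the homeodomain factor Brn3a, which habenular neurons need for their identity. In RNA from a whole piece of tissue, fewer cells of a type and less RNA per cell cannot be told apart.

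The promoters of Tac2, Gng8 and Nwd2 are given here because these medial habenula genes were higher together in the rich arrays. They were picked after their values were seen, and the stretch shown is the 250 bases before the RefSeq start of each gene in assembly GRCm38.p6, all on the plus strand, at chr10:127724228-127724477 for Tac2, chr7:16891536-16891785 for Gng8 and chr5:63648853-63649102 for Nwd2. Capitals mark the letters CAGCTG, an E-box of the kind that helix-loop-helix factors such as Nhlh2 bind, which reads the same on both strands.
Tac2: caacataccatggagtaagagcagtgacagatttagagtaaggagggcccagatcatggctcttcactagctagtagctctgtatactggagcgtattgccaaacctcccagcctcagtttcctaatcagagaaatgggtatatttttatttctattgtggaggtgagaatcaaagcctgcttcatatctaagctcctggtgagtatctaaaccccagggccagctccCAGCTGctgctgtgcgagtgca
Gng8: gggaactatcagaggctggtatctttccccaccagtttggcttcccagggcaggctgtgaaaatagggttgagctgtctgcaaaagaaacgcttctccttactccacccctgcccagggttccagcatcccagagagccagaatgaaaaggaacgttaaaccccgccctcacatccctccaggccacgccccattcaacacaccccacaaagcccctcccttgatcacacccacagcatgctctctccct
Nwd2: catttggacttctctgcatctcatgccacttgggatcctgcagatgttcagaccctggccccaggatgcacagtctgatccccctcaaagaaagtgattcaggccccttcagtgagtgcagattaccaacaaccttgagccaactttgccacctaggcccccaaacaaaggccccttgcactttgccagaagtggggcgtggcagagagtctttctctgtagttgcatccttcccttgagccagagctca
The letters CAGCTG stood in the Tac2 stretch and in neither of the other two. Of the 37 genes with a probe set higher in the rich arrays, 26 had a RefSeq promoter entry, and 3 of these (11.5%) held the letters, in Nell1, Nppa and Tac2. Among all 27025 promoters of that length the share was 12.8%, which is close to the share among the higher genes. A match of letters is a description of the sequence and not a site of binding.

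The 4 score genes chose the arrays, so their values are a description with no test. Score values ran from 0.44 to 1.39 in the rich arrays (median 0.66) and from -2.16 to -0.31 in the poor arrays (median -0.88). At the upper edge the last rich array had a score of 0.439 and the first middle array 0.434, and at the lower edge the first poor array had -0.312 and the last middle array -0.311. Both groups thus meet the middle arrays without a gap.

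Gpr151 had deposited log2 values from 7.60 to 8.33 (median 7.97) in the rich arrays and from 5.79 to 7.85 (median 7.28) in the poor arrays. Chrnb4 ran from 5.99 to 6.99 (median 6.44) in the rich and from 4.84 to 6.38 (median 5.72) in the poor arrays. Chrna3 lay between 7.18 and 7.99 (median 7.52) in the rich and between 6.60 and 7.51 (median 7.18) in the poor arrays. The groups overlapped in each of these genes, and most of the range of Gpr151 and Chrnb4 lay in the poor arrays. Pou4f1 had values from 6.52 to 8.16 (median 7.57) in the rich and from 5.80 to 8.08 (median 6.67) in the poor arrays, and the highest poor array lay close to the highest rich one. A value of a score gene was missing in 4 thalamus arrays, 3 poor and 1 middle, and the score was then the mean over the genes with a value. In the middle array that was Pou4f1 alone.

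**Figure D1:**
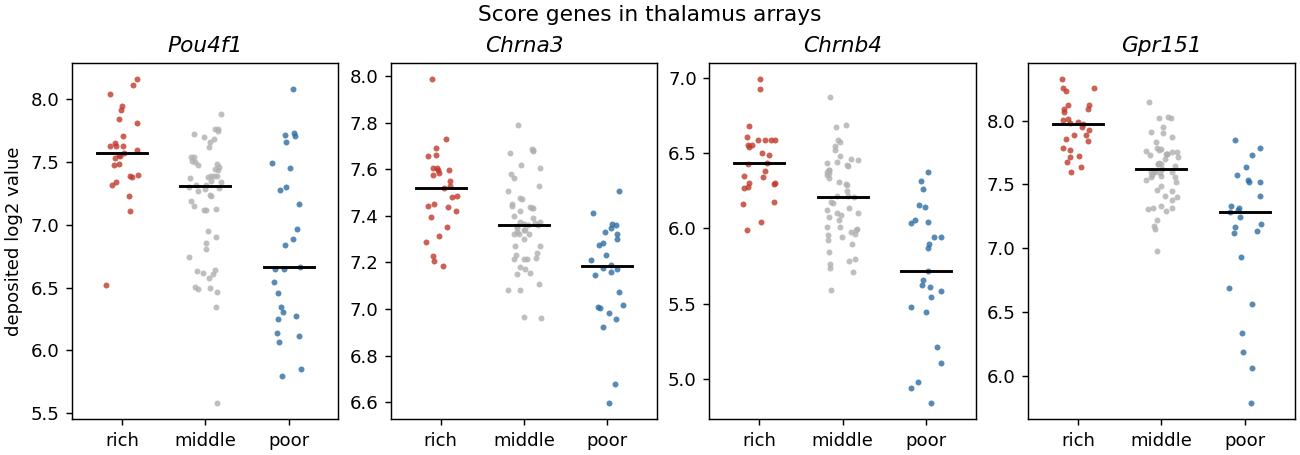
Deposited log2 value of the 4 score genes (y axis) in rich, middle and poor thalamus arrays (x axis), 1 point an array, with a bar at the median. The rich medians are 7.57 for Pou4f1, 7.52 for Chrna3, 6.44 for Chrnb4 and 7.97 for Gpr151, against poor medians of 6.67, 7.18, 5.72 and 7.28, and the groups overlap in every gene.

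Over all 27 rich, 54 middle and 27 poor arrays the Pou4f1 probe set of the score did not vary with the other 3 genes. Its Pearson r was 0.04 with Chrna3, -0.003 with Chrnb4 and 0.05 with Gpr151, whereas r was 0.70 for Chrnb4 with Gpr151, 0.41 for Chrna3 with Gpr151 and 0.27 for Chrna3 with Chrnb4. A second probe set of Pou4f1, with a lower mean and not used by the score, gave r of 0.46 with Gpr151, 0.42 with Chrnb4 and 0.28 with Chrna3, and r of -0.23 with the first probe set of its own gene. These are correlations across mice on shared arrays and are given as descriptions. Since these 2 probe sets of 1 gene disagreed, the Pou4f1 level cannot be read from either alone, and several results are given below also for a score of Chrna3, Chrnb4 and Gpr151 without Pou4f1. That score had r of 0.91 with the full one, and 21 of the 27 rich and 20 of the 27 poor arrays stayed in their group under it.

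**Figure D2:**
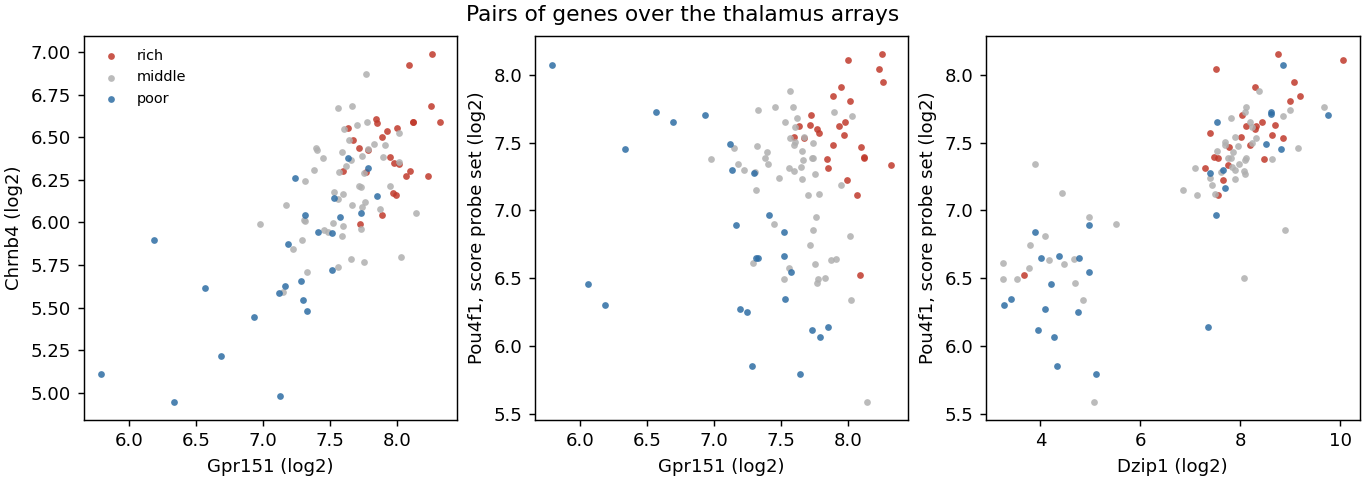
Each panel plots the deposited log2 values of a pair of genes over the thalamus arrays, 1 point an array, coloured by rich, middle and poor. Chrnb4 goes up with Gpr151 (r = 0.70), the score's Pou4f1 probe set shows no such relation with Gpr151 (r = 0.05), and that probe set goes up with Dzip1 of the same chromosome (r = 0.82).

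To test the score genes by a rule that did not use them, the rich and poor arrays were chosen again by the other 3 genes each time. Gpr151 averaged 7.87 in the rich and 7.23 in the poor arrays of the score without it, a difference of 0.64 ± 0.10 (SE, limma, adjusted p = 0.00232). Chrnb4 averaged 6.39 in the rich and 5.88 in the poor arrays of the score without it, a difference of 0.51 ± 0.10 (adjusted p = 0.0232). The same test gave 0.18 ± 0.07 for Chrna3 (7.42 in the rich and 7.24 in the poor arrays, adjusted p = 0.448) and 0.18 ± 0.16 for Pou4f1 (7.30 and 7.13 in the same order, adjusted p = 0.809). For the second probe set of Pou4f1, which averaged 7.03 in the rich and 6.67 in the poor arrays, the difference was 0.35 ± 0.08 (adjusted p = 0.00992). A second probe set of Chrnb4, with r of 0.22 with the first, had 0.25 ± 0.10 (adjusted p = 0.543). The other probe sets of Chrna3 had 0.19 ± 0.08 (adjusted p = 0.501) and 0.004 ± 0.069 (adjusted p = 0.994). Gpr151, the score's Chrnb4 probe set and the second Pou4f1 probe set were thus higher in arrays picked without them. The second Chrnb4 probe set, all those of Chrna3 and the first of Pou4f1 did not pass the test.

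Over the 45029 probe sets of all other genes, 45 differed between rich and poor arrays at an adjusted p under 0.05 (limma on log2 values, Benjamini-Hochberg), 0.0999% of those tested. Of these, 41 (0.0911%) were higher in the rich arrays and 4 (0.00888%) lower. With 1 probe set a gene, 27 of 18189 genes (0.148%) were higher and 2 (0.011%) lower. The differences were small: 5 probe sets (0.0111%) were called with a log2 difference of at least 0.5, all of them higher. The median difference over all genes was 0.004 log2 units. Without the 3 arrays of lowest score the count was 23, and without the arrays that lack a score gene it was 33. With Gpr151 left out of the score it was 8, with Chrnb4 left out 19 and with Chrna3 left out 22.

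Genes known from the medial habenula led the differences with 1 probe set a gene: Tac2 and Htr5b had the largest called ones. Over all probe sets the largest called differences were those of Dzip1 (2.05) and Ppp1r3e (1.10) on chromosome 14, taken up below. Of the 28 genes of the medial habenula list, 24 were measured. Of these, 5 were higher in the rich arrays (Tac2, Htr5b, Gng8, Nwd2 and Nr4a2) and none lower, against 0.148% of all genes called higher. The list was chosen with earlier results of these data known, so this contrast of shares is a description and no independent test. The median difference over the 24 was 0.08, against 0.004 over all genes. The list's mean z ran from -0.26 to 0.71 (median 0.21) in the rich arrays and from -0.93 to 0.61 (median -0.20) in the poor arrays.

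Tac2, the gene of the tachykinin neurokinin B, had log2 values from 8.01 to 9.35 (median 8.70) in the rich arrays and from 6.61 to 8.81 (median 8.19) in the 25 poor arrays with a value. The rich arrays held the highest values and the poor arrays a long lower tail, with overlap between them. The difference in means was 0.61 ± 0.12 (SE, adjusted p = 0.0176). Its call ended with Chrna3 (adjusted p = 0.113), Chrnb4 (0.134) or Gpr151 (0.16) left out of the score, without arrays of RIN under 7 (0.0747; RIN is a measure of RNA integrity) and without the 3 arrays of lowest score (0.0847). Htr5b, a serotonin receptor gene, ran from 6.01 to 6.85 (median 6.49) in the rich arrays and from 5.07 to 6.63 (median 6.07) in 25 poor arrays, a difference of 0.53 ± 0.08 (adjusted p = 0.0012). Gng8, a gamma subunit of heterotrimeric G proteins, ran from 7.73 to 8.34 (median 7.96) in the rich and from 7.06 to 8.09 (median 7.74) in 25 poor arrays, a difference of 0.36 ± 0.06 (adjusted p = 0.00133). Both genes overlapped between the groups, with the lowest values in poor arrays.

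Nwd2, a gene of the NACHT and WD repeat family with a promoter printed above, had values from 9.02 to 9.63 (median 9.20) in the rich arrays. In 25 poor arrays it ran from 8.24 to 9.37 (median 8.86), so every rich array was above the median of the poor ones. The difference was 0.36 ± 0.06 (adjusted p = 0.00133). Nr4a2, the orphan nuclear receptor Nurr1, ran from 8.33 to 9.04 (median 8.62) in the rich arrays and from 7.90 to 8.90 (median 8.36) in 26 poor arrays, with wide overlap and a difference of 0.27 ± 0.06 (adjusted p = 0.0278). Over 23 alternative settings the call was kept in 22 for Gng8, 21 for Htr5b, 20 for Nwd2, 17 for Tac2 and 11 for Nr4a2.

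**Figure D3:**
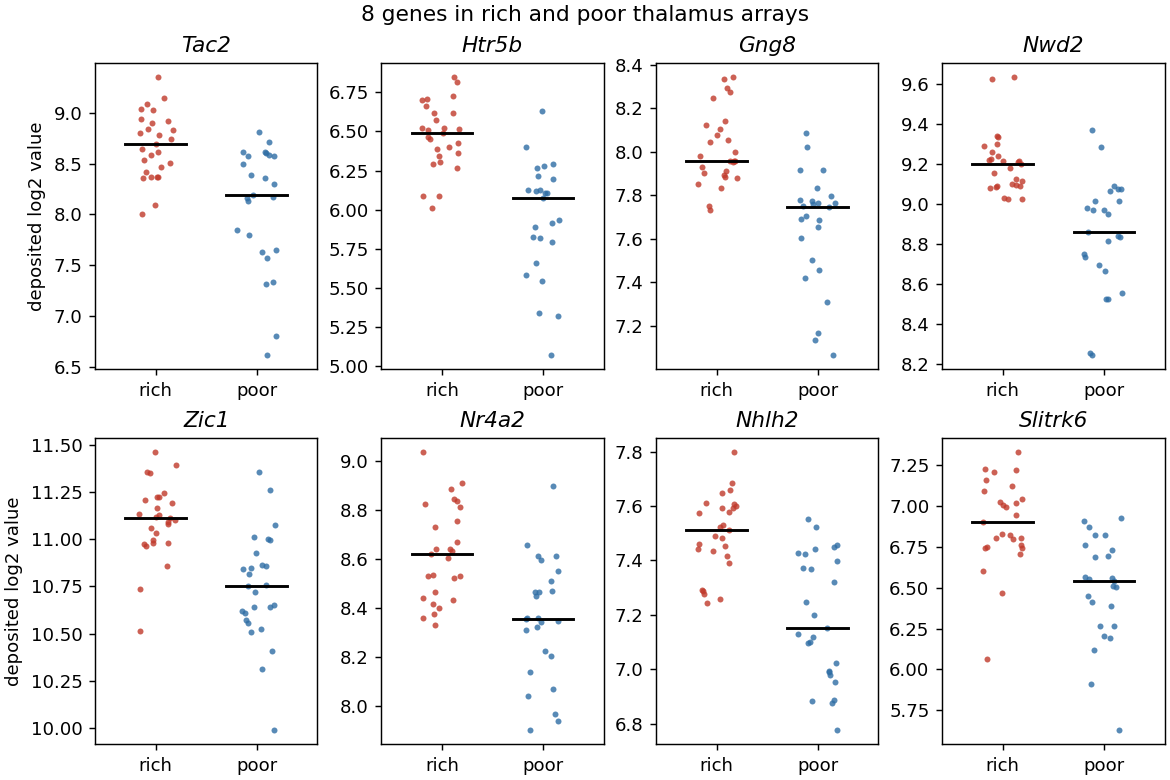
Deposited log2 value (y axis) of 8 genes in rich and poor thalamus arrays (x axis), 1 point an array, with a bar at the median. The rich median is the higher in each panel, from 8.70 against 8.19 for Tac2 to 6.90 against 6.54 for Slitrk6, and the groups overlap in all 8.

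The other 19 measured genes of the list did not pass the test. The mu opioid receptor gene Oprm1 had a difference of 0.22 ± 0.09 (adjusted p = 0.446), and the genes of acetylcholine synthesis and transport in the list had 0.18 ± 0.08 for Chat, 0.13 ± 0.08 for Slc5a7 and 0.09 ± 0.10 for Slc18a3. Tac1, the gene of substance P, had 0.04 ± 0.03, and Calb2, the gene of calretinin, 0.07 ± 0.03. Several of these genes are known from other parts of the thalamus too, among them Tcf7l2 (0.05 ± 0.04) and Cck (0.006 ± 0.067).

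Zic1 and Nhlh2, which encode transcription factors, were among the other higher genes. Zic1, a zinc finger factor, had values from 10.51 to 11.46 (median 11.12) in the rich and from 9.99 to 11.36 (median 10.75) in the poor arrays, a difference of 0.35 ± 0.06 (adjusted p = 0.0044). Nhlh2, a helix-loop-helix factor of neurons, ran from 7.24 to 7.80 (median 7.51) in the rich and from 6.78 to 7.55 (median 7.15) in the poor arrays, a difference of 0.31 ± 0.05 (adjusted p = 0.00133). All rich arrays were above the poor median of Nhlh2, and the groups overlapped in both genes. A second probe set of Zic1 was called as well, at 0.40 ± 0.07, and so were Zic5 at 0.44 ± 0.09 and a lower probe set of Zic4 at 0.36 ± 0.08, named here after their values were seen. Over the same 23 settings Zic1 kept its call in 21 and Nhlh2 in 19.

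Slitrk6 and Prkch were higher as well. Slitrk6, a transmembrane protein of neurite growth, ran from 6.06 to 7.33 (median 6.90) in the rich and from 5.63 to 6.92 (median 6.54) in 25 poor arrays, a difference of 0.40 ± 0.08 (adjusted p = 0.0107). Prkch, the eta form of protein kinase C, ran from 7.92 to 9.06 (median 8.37) in the rich and from 7.29 to 8.73 (median 8.07) in the poor arrays, a difference of 0.36 ± 0.07 (adjusted p = 0.0173). The groups overlapped over most of the range of both genes, and the calls were kept in 18 settings for Slitrk6 and 16 for Prkch.

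The remaining higher genes among the 15 largest were Nppa (0.40 ± 0.09), the gene of atrial natriuretic peptide, Stum (0.35 ± 0.08), Sntb1 (0.29 ± 0.07), a syntrophin of the dystrophin complex, the Wnt receptor gene Fzd5 (0.26 ± 0.05), and Gm5089 (0.41 ± 0.09) and Ngdn (0.39 ± 0.08), which are taken up below. Smaller differences were called for the calcium-binding proteins Necab2 (0.20 ± 0.03) and Calb1 (0.21 ± 0.04), for the vesicle protein Syt9 (0.25 ± 0.05), and for the synapse organiser Cbln1 (0.20 ± 0.04), named after their values were seen. The called lower genes were Ngef at -0.13 ± 0.03 (9.81 in the rich and 9.94 in the poor arrays on average, adjusted p = 0.0256), and Socs5, a suppressor of cytokine signalling, at -0.11 ± 0.02 (10.68 in the rich and 10.79 in the poor arrays, adjusted p = 0.0286). Of the 23 settings, Gm5089 kept its call in 14, Nppa and Fzd5 in 12, Ngdn in 11, Sntb1 in 9, Stum and Ngef in 8 and Socs5 in 6.

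Genes known from the relay nuclei of the thalamus leaned the same way. All 16 measured genes of the relay thalamus list had a difference above 0, with a median of 0.16 against 0.004 over all genes, and 1 of them, Zic1, passed the test. The homeobox gene Gbx2 had values from 6.60 to 7.44 (median 7.05) in the rich and from 5.46 to 7.53 (median 6.68) in the poor arrays, a difference of 0.40 ± 0.10 (adjusted p = 0.0787). Synpo2, an actin-binding protein, had 0.39 ± 0.10 (adjusted p = 0.118) and Ramp3, a partner of peptide receptors, 0.36 ± 0.10 (adjusted p = 0.186). Slc17a6, the vesicular glutamate transporter of the thalamus, had 0.04 ± 0.03. The list's summed level, as a mean z over its genes, ran from -0.94 to 1.19 (median 0.28) in the rich arrays and from -2.26 to 1.25 (median -0.26) in the poor arrays. The part of the relay nuclei in the differences of the medial habenula genes was not tested.

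With the score of Chrna3, Chrnb4 and Gpr151 alone, 186 probe sets (0.413%) were called, 158 (0.351%) higher and 28 (0.0622%) lower, and 33 of the 45 calls were among them. By gene, 100 (0.55%) were higher and 17 (0.0935%) lower. Each of the 5 medial habenula genes was called under this score too. It shared its genes, 21 rich and 20 poor arrays with the full score (r = 0.91), so these calls are no separate test. Tac2 had a difference of 0.71 ± 0.12 (8.71 in the rich and 8.00 in the poor arrays on average). Htr5b had 0.56 ± 0.07, Nwd2 0.44 ± 0.05, Gng8 0.37 ± 0.06 and Nr4a2 0.26 ± 0.06. The relay thalamus list then had 8 of its 16 genes higher: Gbx2 at 0.58 ± 0.09 (7.05 in the rich and 6.47 in the poor arrays, adjusted p = 4.48e-05), Synpo2 at 0.54 ± 0.10, Ramp3 at 0.46 ± 0.10, Zic1 at 0.42 ± 0.06, Zic4 at 0.26 ± 0.06, the nuclear receptor gene Rora at 0.24 ± 0.05, the homeobox gene Shox2 at 0.19 ± 0.05 and the RNA-editing enzyme gene Adarb1 at 0.16 ± 0.04.

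Under that score more genes of the thalamus list than of the habenula list passed the test, 8 of 16 against 5 of 24, and both shares stood above the 0.55% of all genes. Both lists were chosen with earlier results of these data known, so these shares are descriptions. Other genes called higher among the 15 largest were Nppa (0.51 ± 0.08), Adgrd1 (0.45 ± 0.09), an adhesion receptor, Gabrd (0.42 ± 0.10), the delta subunit of the GABA-A receptor, and Plekhg1 (0.37 ± 0.08). The largest lower ones were Sult1a1 (-0.25 ± 0.06), a sulfotransferase, Meis2 (-0.24 ± 0.05), a homeobox factor of the list of reticular nucleus and zona incerta, and Birc3 (-0.21 ± 0.05), an inhibitor of apoptosis. Kit, a receptor tyrosine kinase, had -0.17 ± 0.04 and Vamp1, a vesicle protein, -0.10 ± 0.02. Meis2 averaged 9.50 in the rich and 9.74 in the poor arrays of that score (adjusted p = 0.00774).

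Markers of the lateral habenula did not pass the test, with 0 of 7 genes called and differences from -0.09 to 0.08. With 0.148% of all genes called higher, a count of 0 in lists of this size is no result about their members. Of the nicotinic receptor subunits outside the score, 0 of 13 were called (differences from -0.14 to 0.17). The count was also 0 of 5 for acetylcholine synthesis and transport (median 0.09) and 0 of 5 for vesicular glutamate and GABA transport (median -0.02). Among the subunits, Chrnb2 had 0.08 ± 0.03 (adjusted p = 0.437), and Chrna5, which lies beside Chrna3 and Chrnb4 in the genome, -0.02 ± 0.07 (adjusted p = 0.969). Of the 13 subunits, 8 had a difference above 0. Among the other POU and LIM homeobox factors, 0 of 11 were called, with Isl1 at 0.29 ± 0.10 (adjusted p = 0.349).

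In the list of neuropeptides 1 of 23 was called (Tac2), in that of receptors for habenular transmitters 1 of 14 (Htr5b), and in that of hippocampal genes 1 of 10 (Calb1), against 0.148% of all genes called higher. The hypothalamic peptide genes Hcrt and Pmch, of orexin and melanin-concentrating hormone, had large differences that did not pass the test: 0.86 ± 0.28 for Hcrt (7.29 in the rich and 6.44 in the poor arrays, adjusted p = 0.315) and 0.83 ± 0.30 for Pmch (9.32 in the rich and 8.49 in the poor arrays, adjusted p = 0.407). Neither is a gene of the habenula.

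Lists of tissue that borders the habenula had no called gene with the full score. For choroid plexus, 0 of 10 were called, with Ttr, the gene of transthyretin, at 1.12 ± 0.47 (11.57 in the rich and 10.45 in the poor arrays, adjusted p = 0.495) and Folr1 at 0.31 ± 0.14. The list's mean z ran from -0.62 to 1.91 (median -0.14) in the rich and from -0.81 to 2.09 (median -0.34) in the poor arrays. For ependyma 0 of 9 were called and 8 had a difference above 0, with a median of 0.09. Its mean z ran from -0.999 to 1.27 (median 0.36) in the rich and from -1.51 to 0.77 (median -0.12) in the poor arrays, the rich median being the higher. Without Pou4f1 in the score 1 ependymal gene was called, Enkur, a protein of motile cilia, at 0.31 ± 0.08 (adjusted p = 0.0492). For pineal gland 0 of 7 were called, with a median of -0.04. The list of meninges and mural cells had 0 of 10 and a median of -0.10, with Ogn at -0.30 ± 0.13 and Col1a2 at -0.20 ± 0.09. Its mean z ran from -1.95 to 1.08 (median -0.16) in the rich and from -1.37 to 1.67 (median 0.10) in the poor arrays. With Ttr as a covariate, 41 probe sets were called in place of 45.

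For oligodendrocytes, their precursors, astrocytes, microglia, endothelium and neurons in general, no gene was called and the medians lay between -0.03 and 0.02. The list of reticular nucleus and zona incerta, tissue beside the relay nuclei, ran the other way: 1 of its 9 genes had a difference above 0, the median was -0.06, and 0 were called. Its mean z ran from -1.05 to 0.76 (median -0.20) in the rich and from -1.02 to 0.93 (median 0.24) in the poor arrays. Lists of subthalamic and pretectal, cortical, striatal, hypothalamic, midbrain, immediate early and blood genes also had none, so that 23 of the 28 lists held no called gene, or 21 with the score without Pou4f1. The part of any of these tissues in the differences was not tested beyond these counts.

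Genes on chromosome 14, where Pou4f1 lies, made up a larger share of the calls than of all probe sets. Of the 45 called probe sets, 9 (20%) were of genes on chromosome 14 by the gene table of assembly GRCm38.p6, against 1215 (3.5%) of the 34737 probe sets with a chromosome. These were Dzip1, Dnajc3, Ppp1r3e, Bmp1, Gm5089, Ngdn, Lrch1, Slitrk6 and Zic5. All but Gm5089, Ngdn and Slitrk6 are named after their values were seen. For Dzip1, Dnajc3, Ppp1r3e, Bmp1 and Zic5 the called probe set was not the one with the gene's highest mean in thalamus. No other probe set of these genes was called. Dzip1, a zinc finger protein of the cilium, had values from 3.66 to 10.04 (median 8.19) in the rich and from 3.26 to 9.76 (median 4.97) in the poor arrays, a difference of 2.05 ± 0.42 (adjusted p = 0.0185). Most rich arrays were near the upper values and the poor arrays were split between a low and a high cluster. Dnajc3, a co-chaperone of the endoplasmic reticulum, ran from 7.81 to 9.48 (median 9.07) in the rich and from 8.01 to 9.50 (median 8.30) in the poor arrays, a difference of 0.52 ± 0.10 (adjusted p = 0.0107).

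Among these genes, Slitrk6 (r = 0.13) and Zic5 (r = -0.09) had little correlation with the score's Pou4f1 probe set. That probe set went with the other called chromosome 14 genes more than with the called habenula genes. Over all thalamus arrays its 10 highest correlations in size were all with genes on chromosome 14, led by Dzip1 (r = 0.82), Dnajc3 (r = 0.77), Tbc1d4 (r = 0.68) and Uggt2 (r = -0.65). Its r was 0.17 with Gng8 and lay between -0.05 and 0.003 with Tac2, Htr5b, Nwd2, Nr4a2 and Zic1. Gpr151 had r of 0.73 with Gng8 and of 0.71, 0.69, 0.76, 0.50 and 0.58 with the other genes in that order. With the cortex values of the same mice (n = 91) the thalamic Pou4f1 probe set had r of 0.74 for Dzip1 and 0.72 for Dnajc3. The second Pou4f1 probe set was most like Htr5b (r = 0.56), the LIM homeobox gene Lhx9 (r = 0.55), Cytip (r = 0.52), Syt9 and Nwd2 (r = 0.50 each), on 4 other chromosomes, and its r with cortical Htr5b was 0.12. The arrays share mice and batches, and these correlations carry no test.

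With Pou4f1 left out of the score, Dzip1 had a difference of 0.54 ± 0.53 (adjusted p = 0.835), Dnajc3 0.12 ± 0.13, Ppp1r3e 0.49 ± 0.28, Bmp1 0.19 ± 0.13, Gm5089 0.18 ± 0.10 and Ngdn 0.14 ± 0.10, and none of these was called. Slitrk6 (0.45 ± 0.07), Zic5 (0.55 ± 0.08) and Lrch1 (0.17 ± 0.04) were called. With arrays ranked by that Pou4f1 probe set alone, 99 probe sets (0.22%) were called between its upper and lower 25%, 68 (0.151%) higher and 31 (0.0688%) lower. Of the 99, 72 (72.7%) were on chromosome 14, against 3.5% of all probe sets with a chromosome. Among them Dzip1 had 4.12 ± 0.23 and Dnajc3 0.93 ± 0.06. In that ranking Tac2 had -0.09 ± 0.14, Htr5b -0.08 ± 0.10 and Gng8 0.13 ± 0.07 (adjusted p = 0.98, 0.971 and 0.88). Of the 45 called probe sets, 33 were also called by the score without Pou4f1, 6 by Pou4f1 alone, 0 by both and 6 by neither, among the last Socs5, Sntb1 and B230219D22Rik. Of the 36 called probe sets off chromosome 14 or with no chromosome, 30 were called without Pou4f1.

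**Figure D4:**
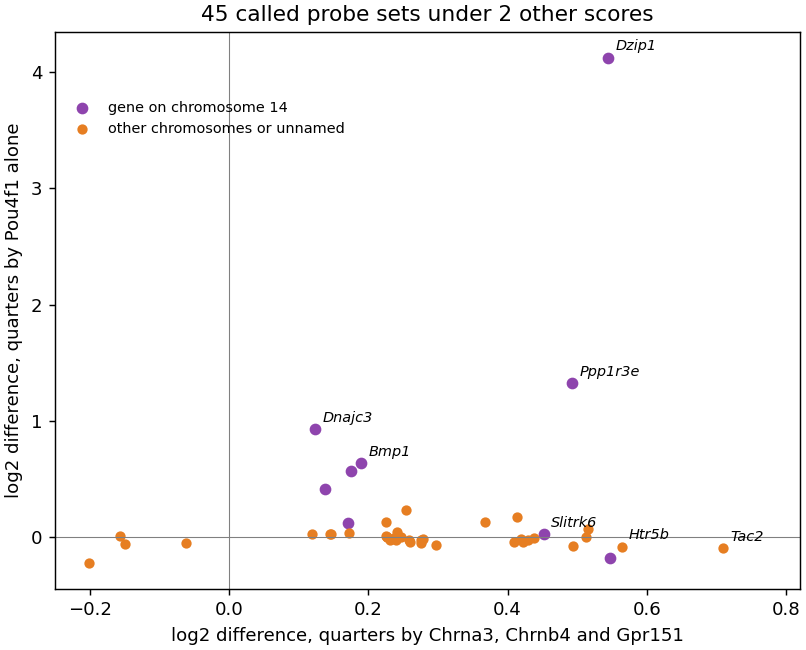
The 45 called probe sets, each a point, by their log2 difference between rich and poor arrays of the score without Pou4f1 (x axis) and between the upper and lower 25% of the score's Pou4f1 probe set alone (y axis). Dzip1, Ppp1r3e, Dnajc3 and Bmp1, on chromosome 14, lie high on the y axis, and Tac2, Htr5b and Slitrk6 lie far along the x axis near 0 on the y axis.

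The middle arrays, which the comparison of rich and poor arrays did not use, gave a check of direction. Over the 54 middle arrays the slope on the score had the same sign as the difference of rich minus poor for 35 of the 45 called probe sets, against 51% of all probe sets tested. In either direction, the slope had an unadjusted p under 0.05 for 23 of the 45, against 8.11% of all probe sets. Of these 23, 22 had the same sign. Off chromosome 14 the sign was the same for 31 of 36, and on it for 4 of 9. Tac2 had a slope of 0.45 ± 0.18 log2 units per unit of score, Nwd2 0.27 ± 0.11, Zic1 0.45 ± 0.13 and Slitrk6 0.63 ± 0.18, whereas Nr4a2 had -0.22 ± 0.12. None of these 5 passed adjustment over all probe sets (adjusted p from 0.214 to 0.683).

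In the middle arrays 3 probe sets (0.00666%) passed adjustment, each at an adjusted p of 0.0439. These were Nell1, a secreted protein that was also called between rich and poor arrays, at 0.43 ± 0.08, Tcf7l2, a Wnt pathway factor of thalamus and habenula, at 0.54 ± 0.10, and Neto1, a partner of glutamate receptors, at -0.38 ± 0.07. The 10 genes whose level was most like the score over these 54 arrays were Nell1 (r = 0.59), Tcf7l2 (r = 0.57), Shox2 (r = 0.56), Patj (r = 0.55), Scube2 (r = 0.51), Necab3, Kcnc2, Shisal1, Prkcd and Synpo2 (r from 0.49 to 0.50). Shox2, Prkcd and Synpo2 are of the relay thalamus list and Tcf7l2 of the medial habenula list. With RIN as a covariate, and with the score without Pou4f1, 0 probe sets passed adjustment in the middle arrays.

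In other regions of the same mice no probe set was called between rich and poor mice by limma: 0 of 45037 (0%) in cortex (23 rich and 23 poor mice), in hippocampus (20 and 16 mice in the same order) and in hypothalamus (23 and 17). At an unadjusted p under 0.05 there were 2362 (5.24%) in cortex, 2004 (4.45%) in hippocampus and 2934 (6.51%) in hypothalamus. Of the score genes in cortex, Gpr151 averaged 4.68 in rich and 4.69 in poor mice, Chrnb4 4.53 in rich and 4.47 in poor mice, and Chrna3 4.21 in rich and 4.20 in poor mice. Pou4f1 averaged 4.04 in rich and 3.89 in poor mice there, a difference of 0.15 ± 0.06 (adjusted p = 0.912). In hypothalamus Chrnb4 averaged 8.17 in rich and 8.31 in poor mice and Chrna3 7.08 in rich and 7.11 in poor mice. Differences of the score genes ran from -0.14 (Chrnb4) to 0.15 (Gpr151) in hypothalamus. In hippocampus they ran from -0.24 (Chrnb4) to -0.001 (Pou4f1). The regions may have been normalized separately, so only differences within a region are read.

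Genes of chromosome 14 were among those with the smallest p in cortex. Dnajc3 averaged 8.64 in rich and 8.14 in poor mice there, a difference of 0.50 ± 0.10 (adjusted p = 0.208), beside its 0.52 in thalamus. Dzip1 had 1.58 ± 0.38 in cortex and 2.03 ± 0.44 in hypothalamus (adjusted p = 0.742 and 0.258). In cortex Dzip1 averaged 7.47 in rich and 5.88 in poor mice. In hypothalamus it averaged -0.57 in rich and -2.60 in poor mice, very low log2 values, so differences there are between values of little signal. With mice ranked by the thalamic Pou4f1 probe set alone, 33 of 45037 probe sets were called in cortex, 49 in hippocampus and 93 in hypothalamus. Of these, 25 (75.8%), 36 (73.5%) and 63 (67.7%) were on chromosome 14, against 3.5% of all probe sets with a chromosome. In that ranking Dzip1 differed by 3.40 ± 0.28 in cortex, 3.60 ± 0.31 in hippocampus and 3.78 ± 0.23 in hypothalamus. Uggt2, a glucosyltransferase of protein folding, was lower by the same ranking in all 3 regions, at -0.91 ± 0.09, -0.88 ± 0.09 and -0.69 ± 0.07 in the same order of regions.

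The called habenula and thalamus genes had small differences in cortex, none of which passed the test. There Tac2 had a difference of 0.04 ± 0.07, Htr5b 0.02 ± 0.09, Nwd2 -0.02 ± 0.05, Zic1 -0.01 ± 0.07, Slitrk6 0.0001 ± 0.0984 and Gng8 -0.11 ± 0.09. When cortex was taken from thalamus within each mouse, 1 probe set (0.00222%) differed between the 23 rich and the 23 poor mice after adjustment, Art5, and it is given in the closing section. Among the named genes, Tac2 had a difference of 0.54 ± 0.16, Htr5b 0.49 ± 0.13 and Nwd2 0.38 ± 0.09 on that scale (unadjusted p of 0.00104, 0.00037 and 9.22e-05), each with an adjusted p of 0.532 or more. With Pou4f1 left out of the score, Htr5b (0.65 ± 0.11, adjusted p = 0.00378) and Nwd2 (0.48 ± 0.07, adjusted p = 0.00221) passed that test of the difference between regions. That fit without Pou4f1 was not planned and was added after the data were seen.

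**Figure D5:**
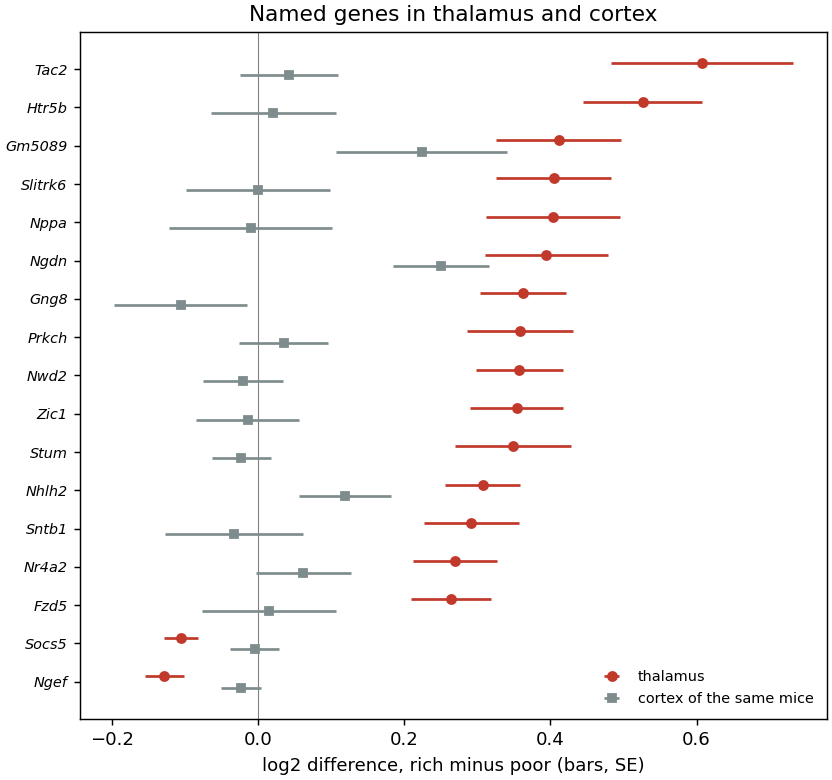
Log2 difference, rich minus poor (x axis, bars are SE), of the 17 genes named by the largest differences (y axis), in thalamus and in the cortex of the same mice. Tac2 stands at 0.61 in thalamus and 0.04 in cortex and Nwd2 at 0.36 and -0.02, whereas Ngdn and Gm5089 of chromosome 14 have 0.25 and 0.22 in cortex.

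No measure of RNA quality passed the test between the groups. The RNA integrity number (RIN, on which a higher value means less degraded RNA) averaged 7.78 ± 0.55 in the rich and 7.59 ± 0.80 in the poor arrays (SD, n = 27 each, two-sided permutation test, p = 0.337, adjusted over 4 measures 0.674). The ratio of the 28S and 18S bands was 1.27 ± 0.18 in the rich and 1.26 ± 0.19 in the poor arrays, and the yield of labelled RNA 66.3 ± 9.7 in the rich and 63.4 ± 9.9 in the poor arrays in the labels' unit (adjusted p = 0.848 and 0.674). RNA concentration was 0.12 ± 0.01 in both. The lowest RIN was 5.8 in the rich and 5.3 in the poor arrays. Without the arrays of RIN under 7, 18 probe sets were called in place of 45. Of the 3 hybridization dates, the most frequent held 22 rich and 21 poor arrays, the next 4 rich and 6 poor, and the last 1 rich array. On the most frequent date alone 24 probe sets were called, or 32 with rich and poor arrays chosen anew within it. Each of the 9 animal cohorts held both groups.

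None of the 283 traits of sleep and behaviour differed between rich and poor mice after adjustment (two-sided permutation test with 100000 resamples, smallest adjusted p = 0.458), and 25 (8.83%) had an unadjusted p under 0.05. The smallest p was that of wake in the second bin of recovery after sleep deprivation, in the dark, as a ratio to baseline: 0.77 ± 0.09 in 26 rich and 0.87 ± 0.12 in 27 poor mice (SD, p = 0.00162). The next were the mean duration of sleep bouts in the first bin of that recovery (0.70 ± 0.95 in rich and 0.007 ± 1.048 in poor mice on the authors' transformed scale, p = 0.0146), freezing to the context relative to baseline (-0.06 ± 0.86 in rich and 0.63 ± 1.03 in poor mice, p = 0.0166), the mean duration of NREM sleep bouts in the same first bin (p = 0.0167), and a share of distance in the elevated plus maze, named for the closed arms and described for the center (p = 0.0186). Over all mice with a thalamus array, 0 traits passed adjustment for a Spearman correlation with the score (smallest adjusted p = 0.269), and 0 passed between rich and poor mice of the score without Pou4f1.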

How the data were processed

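Total RNA was measured on 1-colour Affymetrix mouse expression arrays, 1 array for each mouse and region. The deposited values are on a log2 scale and were made by the authors with tools that the submitters' processing notes name as affy and RMA. Versions, genome build and any batch adjustment were not found in the sources. Over the thalamus arrays, cohort explained a median of 0.694% of a probe set's variance, where chance would give 7.48%, and hybridization date 0.512%, where chance would give 1.87%. Little of either was thus left in the values, and p-values may be somewhat too small. In thalamus 0.22% of values were missing (21 to 880 an array), and they were left missing. The trait values were deposited by the authors on other scales, each trait with its own, and 9 columns of mice with no thalamus array here were not used.

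Of 45037 probe sets, 34945 had 1 gene symbol in the platform annotation, 932 several and 9160 none, and chromosomes came from RefSeq's table of GRCm38.p6. The test of rich against poor arrays was limma 3.58.1 (lmFit, eBayes with a trend), run in R 4.3.3, with Benjamini-Hochberg adjustment over all probe sets except the 8 of the score genes, with adjusted p under 0.05 as the threshold. RNA measures and traits were compared by permutation tests written with numpy 2.4.6 in Python 3.11.15. The ranks for the Spearman correlation came from scipy 1.17.1. The limma step was tested on simulated data. Number of arrays limits the precision. Alternatives were other scores, other shares of arrays, date, cohort, homogenization, RIN and Ttr terms, new quantile normalization, and filters.

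Genes named were the 15 with the largest called difference each way with 1 probe set a gene, called members of the habenula, nicotinic, acetylcholine and transporter lists, the 4 largest of each other list, and the 10 most like the score in the middle arrays, as well as the 5 traits and up to 10 genes of each other region with the smallest p. The score genes, the 28 gene lists and the tests were chosen with earlier results of these data known. Mice are the replicates, and each array is of its own mouse. Same-numbered arrays of different groups are not pairs. The same mouse links its thalamus to its cortex by the animal label.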

Additional observations from a re-analysis of the deposited data

Results flagged for a closer look

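Art5, the gene of an ADP-ribosyltransferase, differed between thalamus and cortex in its contrast of rich and poor mice. The thalamus minus cortex value had a difference of -0.54 ± 0.10 log2 units, rich minus poor (SE, 23 rich and 23 poor mice, limma, adjusted p = 0.0458). In thalamus Art5 averaged 4.10 ± 0.25 in rich and 4.35 ± 0.38 in poor arrays (SD, n = 27 each), a difference of -0.25 ± 0.09 (SE), and in cortex 4.58 in rich and 4.28 in poor mice, a difference of 0.30 ± 0.08. The signs are opposite in thalamus and cortex, and neither difference was called in its own region. With Pou4f1 left out of the score the value was -0.38 ± 0.11 (adjusted p = 0.384).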

How the results depend on the processing

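The 45 calls between rich and poor arrays became 186 with the score without Pou4f1, 22 without Chrna3, 19 without Chrnb4 and 8 without Gpr151. They became 15 with the top and bottom 10%, 139 as a slope over all thalamus arrays, 28 with hybridization date as a term, 24 on the most frequent date, 26 with homogenization code as a term and 18 without arrays of RIN under 7. At a log2 difference of at least 0.5 there were 5 and at 1 there were 2. Of alternatives added after seeing the data, the score's Pou4f1 probe set alone gave 99 calls, and leaving out the 3 arrays of lowest score 23. In the other 11 settings that were run the count lay between 32 and 60. Among these, the second Pou4f1 probe set in the score (60) and leaving out arrays that lack a score gene (33) were also added after seeing the data. The number higher became 158 and the number lower 28 without Pou4f1, against 41 and 4. The 3 calls in the middle arrays became 0 with RIN as a covariate and 0 without Pou4f1. The middle fit without Pou4f1 and the fits of other regions by Pou4f1 alone were added after seeing the data. In other regions the score's Pou4f1 probe set alone gave 33 calls in cortex, 49 in hippocampus and 93 in hypothalamus against 0 each, and cohort as a term gave 1 in hypothalamus. The cause of these shifts was not tested.

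Taking cortex from thalamus within each mouse is the paired fit by animal: it gave 1 call, against 0 with no replicate block and 2 without Pou4f1. The paired fit without Pou4f1 was added after seeing the data. For the 17 genes named by their difference and 23 settings, 245 of 391 values kept the call, 136 lost it with the sign unchanged and 10 turned sign. The kept values include the setting that picked the same probe sets as the score, which had to keep all 17. Leaving a gene out of the score ended 14 of the 17 calls for Chrnb4, 13 for Gpr151, 10 for Chrna3 and 4 for Pou4f1, and the top and bottom 10% ended 10. Leaving out the 3 arrays of lowest score ended 9, and arrays of RIN under 7 ended 8. In the 22 settings other than Pou4f1 alone, 0 of the values turned sign. With Pou4f1 alone 10 did: Tac2 (-0.0912), Htr5b (-0.0790), Prkch (-0.0194), Nwd2 (-0.0086), Zic1 (-0.0403), Stum (-0.0154), Nhlh2 (-0.0511), Nr4a2 (-0.0399), Fzd5 (-0.0214) and Ngef (0.0142). The rich minus poor difference in RNA concentration was -0.0008 over all dates and 0.0011 on the most frequent date. Signal over background limits low probe sets such as Art5, and 27 arrays a group limit small differences.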
